A study of Mus musculus with 32 samples.

Results

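The ABC efflux transporters described here are the 9 genes *Abcc1*, *Abcc2*, *Abcc3*, *Abcc5*, *Abcc6*, *Abcg2*, *Abcb1a*, *Abcb1b*, and *Abcb6*. They were chosen by symbol as pumps of drugs and conjugates, leaving out *Abcc4*, and all 9 were found among the 34453 rows of the count table. RNA from the retinal pigment epithelium (RPE) was sequenced from both eyes of 16 *rd1* mice, 7 at postnatal day 20 (P20) and 9 at P40, which gave 32 libraries. All libraries were labelled *rd1*, a loss of *Pde6b* function under which the rods degenerate, and the methods give the *rd1* mice as FVB/N. In every mouse, AAV-Best1-Nrf2, which carries human *NFE2L2*, was injected under the retina of one eye in a mix with AAV-Best1-GFP (hereafter the Nrf2 eye). Its fellow eye was given AAV-Best1-GFP alone (the control eye). Per the methods, the Nrf2 vector added to the total vector dose and had another capsid than the GFP vector. Nrf2, dose, and capsid therefore cannot be told apart. Both vectors use the human Best1 promoter, which restricts expression to the RPE, so that Nrf2 was added to that cell type. Per the methods, the RPE RNA was purified from the supernatant of an eyecup, without retina, kept in RNA Protect. Eyes were paired by the number that the titles give to treated and control libraries, taken here as the mouse. On this pairing, each pair is a separate mouse, and a mouse contributed to 1 age only. The methods count fewer *rd1* pairs at each age than the labels and describe CD1 pairs at that later age, so the strain at P40 rests on the labels.

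ABC transporters are membrane proteins that use ATP to move substrates across a membrane, and most of the members pump them out of the cell. The ABCC proteins among the members are multidrug resistance-associated proteins, most of which export conjugates with glutathione, glucuronate, or sulfate together with other organic anions. P-glycoprotein (from *Abcb1a* and *Abcb1b* in the mouse) and ABCG2 export many unconjugated drugs at the blood-tissue barriers, including vessels of the brain and retina. Nrf2 is a transcription factor that binds antioxidant response elements next to genes of conjugation and export, and several *Abcc* genes are known among its targets in liver and in cultured cells.

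The total count was 16548332 to 50542797 per library. Levels are CPM, counts scaled to a common library size after TMM normalization, and a library at 3 counts or fewer was taken to be at the floor, which lay between 0.0566 and 0.182 CPM. The libraries were made from amplified RNA, and limits from counts cover counting error only. Human *NFE2L2* was at 1082 to 9506 CPM in the Nrf2 eyes of the P20 mice and at 3205 to 10440 CPM in those of the P40 mice, against 0.924 to 1098 CPM and 0 to 99.2 CPM in control eyes. The library labelled control of P20 mouse 3, with 1098 CPM, lay above the library labelled Nrf2 of P20 mouse 4, with 1082 CPM. In mouse 3 the Nrf2 eye had 7511 CPM, and in mouse 4 the control eye had 66.3 CPM. The order within each mouse thus followed the labels. The control library of mouse 3 and the Nrf2 library of mouse 4 were the most alike of all pairs of libraries. Their squared difference was 8.14 times sampling noise, against 49.5 times for the next pair. The results with Nrf2 at P20 are therefore also given without mice 3 and 4. The RPE identity was visible in every library, with a summed level of 10 RPE markers between 5550 and 72770 CPM, and *Rpe65* at 135.1 to 3574 CPM. The sum weighs abundant markers most, as group means were 3087 to 19410 CPM for *Ttr* and 1.53 to 2.97 CPM for *Best1*. The 12 endothelial markers summed to 55.9 to 448.5 CPM, and 0 of them passed the test in any comparison made over all mice (edgeR, with 2 at an unadjusted *P* value under 0.05 for Nrf2 at P20 and 0 elsewhere). With Nrf2, 1 of 10 RPE markers was lower at P20 and 6 were lower at P40, and 2 of 7 mural markers were lower at each age. At P40, 4 of 8 macrophage and 1 of 6 fibroblast markers were higher. Over all genes tested, 2.93% were called higher and 0.485% lower at P20, and 3.33% and 1.23% at P40. The 8 rod markers, of which *Sag* was lower at P40, had a median sum of 87.7 CPM in control and 9.84 CPM in Nrf2 eyes at P20, and of 98.6 and 16.3 CPM at P40. The 6 markers of Müller glia, at 3085 to 10350 CPM in sum, had 0 calls with Nrf2 (edgeR, 2 and 1 at an unadjusted *P* value under 0.05). Without P20 mice 3 and 4, the Nrf2 calls at P20 were 1 lower of the 10 RPE markers, 1 lower of the 12 endothelial, 1 higher of the 6 Müller glia, and 0 of the 7 mural markers (edgeR). In that fit, 4.58% of all 16567 genes tested were called in either direction. The part of these markers in the results on the transporters was not tested. In RNA collected from eyecups, more cells of a type and more RNA per cell cannot be told apart.

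The levels of the 9 transporters were first ordered in control eyes, per kilobase of the union of their exons, since raw CPM favours long transcripts. *Abcc1*, which exports glutathione conjugates and glutathione disulfide, was the most abundant, with 5.61 ± 1.05 CPM per kb at P20 (mean ± SD, n = 7) and 5.40 ± 2.34 at P40 (n = 9). *Abcc5*, an exporter of cyclic nucleotides and other organic anions, had 3.28 ± 0.919 CPM per kb at P20, and *Abcb6*, a porphyrin transporter, had 2.61 ± 0.655. These 3 genes kept their order at P40 with 3.76 ± 0.996 CPM per kb for *Abcc5* and 2.16 ± 0.523 for *Abcb6*.

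A middle group was formed by the drug pumps. *Abcg2*, the half-transporter also called breast cancer resistance protein, had 0.971 ± 0.543 CPM per kb at P20, *Abcb1a* had 0.729 ± 0.368, and *Abcb1b* had 0.484 ± 0.0999. Lowest were *Abcc3*, an exporter of glucuronides, with 0.204 ± 0.131 CPM per kb, *Abcc2*, the conjugate pump of the liver canaliculus, with 0.117 ± 0.1001, and *Abcc6*, known for releasing ATP and for its loss in pseudoxanthoma elasticum, with 0.106 ± 0.0805. At P40, *Abcb1b* (0.874 ± 0.395) stood before *Abcb1a* (0.827 ± 0.188), and the rest of the order was the same. The ranges of neighbours in the order overlapped throughout at both ages, so that genes next to each other were not separated by their levels. In Nrf2 eyes, the range of *Abcc1* (15.6 ± 5.19 CPM per kb at P20, 12.95 ± 4.83 at P40) lay above that of *Abcc5* (4.45 ± 0.801 and 4.07 ± 1.15) without overlap.

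**Figure D1:**
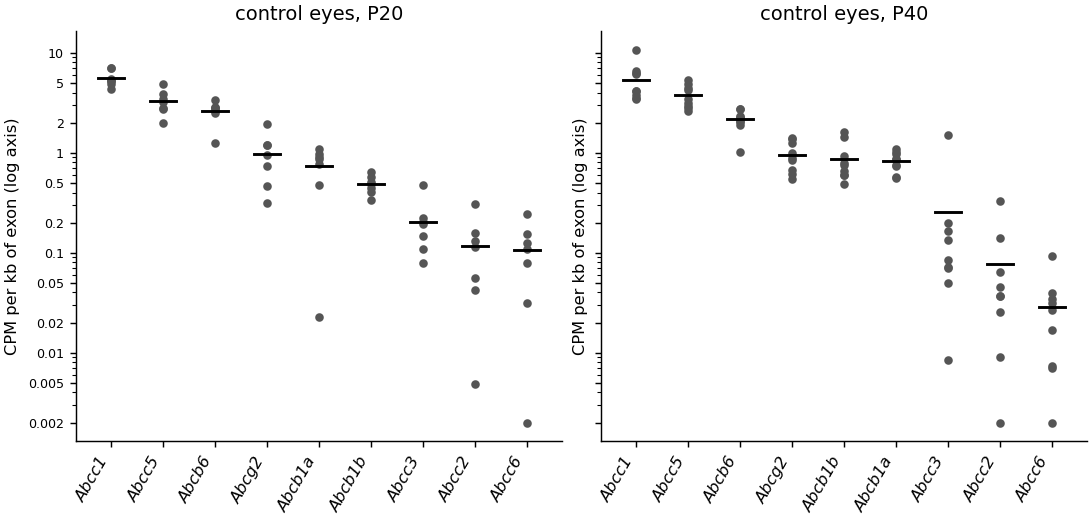
Level of each transporter in control eyes at P20 (left, 7 eyes) and P40 (right, 9 eyes), in CPM per kilobase of exon on a log axis, ordered by the mean. Points are eyes, bars are means, and libraries at 0 are drawn at 0.002. *Abcc1*, *Abcc5*, and *Abcb6* lead at both ages, and *Abcc2* and *Abcc6* are lowest, each with libraries at or near 0.

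The next comparison asked which of these exporters differed between Nrf2 eyes and control eyes. At P20, 2 of the 9 members were higher in Nrf2 eyes and 0 were lower, against 3.41% of all 16303 genes tested that were called in either direction, 2.93% called higher, and 0.485% called lower. At P40, 2 of the 8 members tested were higher and 0 were lower, against 4.57% of 16686 genes called, 3.33% higher and 1.23% lower. *Abcc6* was removed by the filter on low counts at P40. The genes were *Abcc1* and *Abcc3* at both ages. The median log2 fold change of the members tested was 0.33 at P20 and 0.07 at P40, against −0.04 and −0.03 over all genes tested. Calls are from the quasi-likelihood test of edgeR, fitted to pairs of eyes within a mouse, at a Benjamini-Hochberg adjusted *P* value under 0.05. The 2 ages are different mice.

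**Figure D2:**
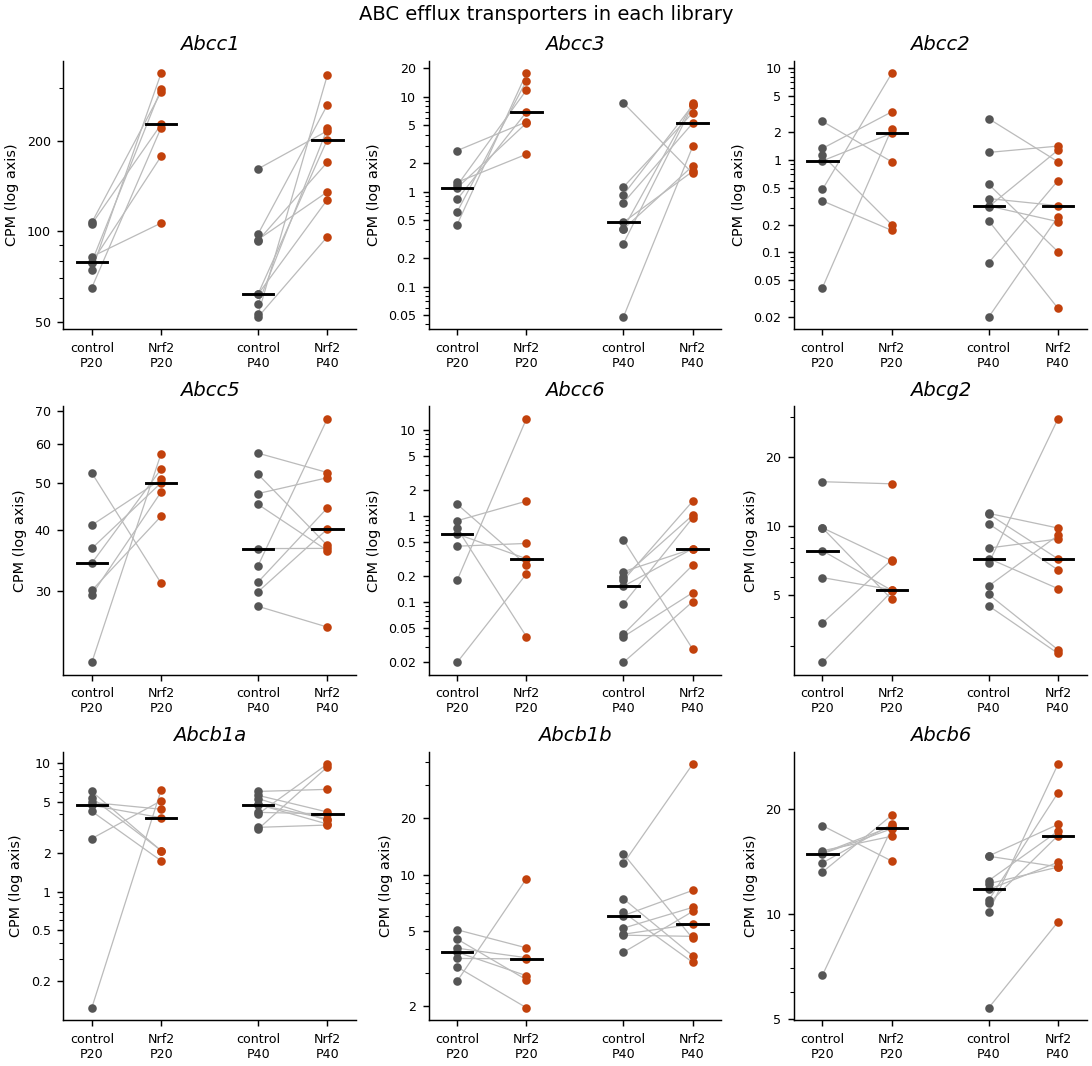
CPM of the 9 transporters in each library on log axes, with control eyes in gray and Nrf2 eyes in orange at P20 (7 mice) and P40 (9 mice). Thin lines join the eyes of a mouse, bars are medians, and libraries at 0 are drawn at 0.02. For *Abcc1* every line rises, and for *Abcc3* every line but that of P40 mouse 8 rises, whereas the lines of the other genes run in both directions.

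*Abcc1* (ENSMUSG00000023088, chr16:14361558-14475737 on the plus strand of GRCm38) had 65.1 to 107.1 CPM in control eyes at P20 (median 79.3) and 106.6 to 334.7 CPM in Nrf2 eyes (median 226.4). Of the 7 Nrf2 eyes, 6 lay above every control eye, and the lowest was that of mouse 4, which also had the least transgene of these Nrf2 eyes. The Nrf2 eye was higher in 7 of 7 mice, by 0.37 to 2.17 on the log2 scale. The log2 fold change was 1.39 (SE 0.195, edgeR adjusted *P* = 0.0116), and it was 1.56 without mice 3 and 4 (adjusted *P* = 0.00955).

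At P40, *Abcc1* had 52.0 to 161.3 CPM in control eyes (median 62.1) and 96.1 to 330.1 CPM in Nrf2 eyes (median 201.6). The groups overlapped through the control eyes of mice 1 and 9, the highest controls, while 7 of the 9 control eyes lay below every Nrf2 eye. The Nrf2 eye was higher in 9 of 9 mice, by 0.42 to 2.64 on the log2 scale. The log2 fold change was 1.22 (SE 0.232, edgeR adjusted *P* = 0.00893). With 1 mouse left out at a time, *Abcc1* was called in 7 of 7 fits at P20, with a highest adjusted *P* value of 0.0496, and in 9 of 9 fits at P40, with a highest of 0.0314.

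*Abcc3* (ENSMUSG00000020865, chr11:94343295-94392997 on the minus strand) is an exporter that in the liver moves glucuronides and bile salts back to the blood. It had 0.451 to 2.71 CPM in control eyes at P20 (median 1.10) and 2.48 to 17.7 CPM in Nrf2 eyes (median 6.90). Of the Nrf2 eyes, 6 of 7 lay above every control eye, and the groups overlapped through the library labelled control of mouse 3 (2.71 CPM) and the library labelled Nrf2 of mouse 4 (2.48 CPM). The Nrf2 eye was higher in 7 of 7 mice, by 0.95 to 5.13 on the log2 scale. The log2 fold change was 2.87 (SE 0.599, edgeR adjusted *P* = 0.0399), and it was 3.63 without mice 3 and 4 (adjusted *P* = 0.0169). The call at P20 was lost without any single mouse other than mouse 4, with adjusted *P* values of up to 0.138 and log2 fold changes of at least 2.49, and without mouse 4 the adjusted *P* value was 0.0156.

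At P40, *Abcc3* had 0.0479 to 8.61 CPM in control eyes (median 0.477) and 1.56 to 8.53 CPM in Nrf2 eyes (median 5.28). The highest of all 18 libraries was the control eye of mouse 8, with 8.61 CPM against 1.12 CPM in the next control eye, and the other 8 control eyes lay below every Nrf2 eye. In that mouse, the Nrf2 eye was lower by 2.42 on the log2 scale, and in the other 8 of 9 mice it was higher by 1.67 to 4.86. The control eye of mouse 8 also had the most transgene of the control eyes at P40 (99.2 CPM) and its Nrf2 eye the least of the Nrf2 eyes (3205 CPM). The part of this in the value of *Abcc3* was not tested. The log2 fold change over the 9 mice was 2.89 (SE 0.724, edgeR adjusted *P* = 0.0430), above the ratio of the group means (1.45 ± 2.71 and 5.00 ± 3.01 CPM, SD), which that control eye dominates. It was 3.31 without mouse 8 (adjusted *P* = 0.00297), the call was lost without any other single mouse (adjusted *P* = 0.0503 to 0.114), and without the replicate block it was lost as well (1.75, adjusted *P* = 0.282).

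**Figure D3:**
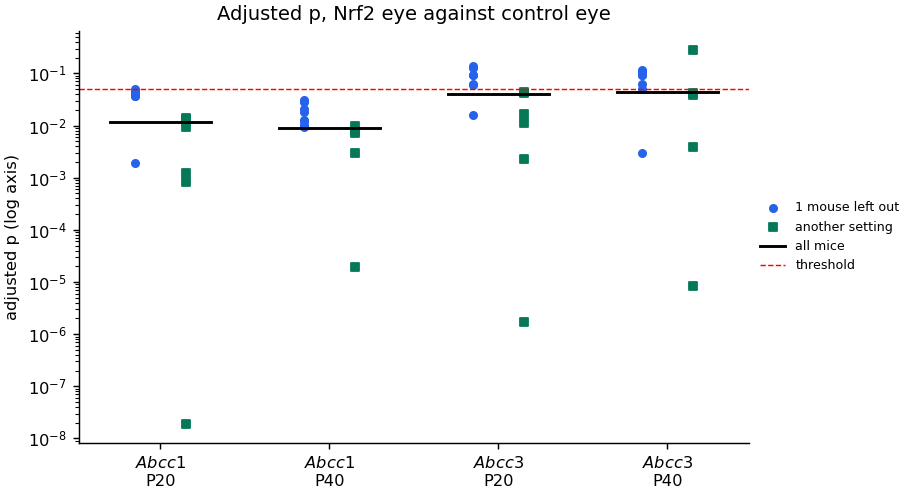
Adjusted *P* value of *Abcc1* and *Abcc3* for Nrf2 eyes against control eyes on a log axis, with all mice (black bars), with 1 mouse left out (blue circles), and with another tool, normalization, filter, block, or without P20 mice 3 and 4 (green squares). The dashed line is the threshold of 0.05. All values of *Abcc1* lie under it, while most values of *Abcc3* with 1 mouse left out lie above it, up to 0.138 at P20 and 0.114 at P40.

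The other ABCC members did not pass the test with Nrf2. *Abcc5* (chr16:20331303-20426394, minus strand) had 21.4 to 52.3 CPM in control eyes at P20 (median 34.2) and 31.1 to 57.4 CPM in Nrf2 eyes (median 49.96). The groups overlapped, and the Nrf2 eye was higher in 6 of 7 mice, the exception being mouse 4. The log2 fold change was 0.44 (SE 0.208, edgeR adjusted *P* = 0.312), and it passed the threshold only without mouse 4 (0.61, adjusted *P* = 0.0373). Without both mice 3 and 4 it was 0.62 (adjusted *P* = 0.118). At P40, *Abcc5* was at 27.9 to 57.5 CPM in control eyes and 25.3 to 67.6 CPM in Nrf2 eyes, higher in 5 of 9 mice, with a log2 fold change of 0.07 (SE 0.172, edgeR adjusted *P* = 0.952).

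*Abcc2* (chr19:43782192-43840740, plus strand) was near the limit of detection and varied between the eyes of a mouse in either direction. It had 0.0416 to 2.63 CPM in control eyes at P20 (median 0.982) and 0.173 to 8.71 CPM in Nrf2 eyes (median 1.95), being higher in the Nrf2 eye of 4 of 7 mice, with a log2 fold change of 0.76 (SE 1.07, edgeR adjusted *P* = 0.746), which was 1.34 without mice 3 and 4 (adjusted *P* = 0.668). At P40 it had up to 2.81 CPM in control eyes, with 1 library at 0 counts, and 0.0248 to 1.42 CPM in Nrf2 eyes, and its log2 fold change was 0.01 (SE 0.781, edgeR adjusted *P* = 0.998). The standard errors of *Abcc2* were over 3 times that of *Abcc1* at both ages, so a change of the size seen in *Abcc1* was not detectable for it.

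*Abcc6* (chr7:45967555-46030302, minus strand, overlapped on the other strand by the processed pseudogene *Gm45674*) had at most 1.38 CPM in control eyes and 0.0399 to 13.7 CPM in Nrf2 eyes at P20. The highest value was in the Nrf2 eye of mouse 2, against 1.503 CPM in the next Nrf2 eye, and the log2 fold change was 0.03 (SE 1.20, edgeR adjusted *P* = 0.992), or 0.48 without mice 3 and 4 (adjusted *P* = 0.915). At P40 it had at most 0.530 CPM in control eyes (median 0.154) and 0.0285 to 1.502 CPM in Nrf2 eyes (median 0.419), with 3 of 9 libraries at the floor in each group. Its Nrf2 eye was higher in 8 of 9 mice, but the counts were at most 51 per library and the gene was not tested at P40.

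The pumps of the blood-tissue barriers, *Abcg2*, *Abcb1a*, and *Abcb1b*, had overlapping levels in both kinds of eye. *Abcg2* (chr6:58584523-58695676, plus strand) had 2.54 to 15.7 CPM in control eyes at P20 (median 7.82) and 4.79 to 15.3 CPM in Nrf2 eyes (median 5.28). At P40 it had 4.48 to 11.4 CPM in control eyes (median 7.23) and 2.78 to 29.6 CPM in Nrf2 eyes (median 7.20). Its Nrf2 eye was the higher in 2 of 7 and 3 of 9 mice, and the log2 fold changes were −0.09 at P20 (SE 0.291, edgeR adjusted *P* = 0.903) and −0.13 at P40 (SE 0.311, edgeR adjusted *P* = 0.948). Without P20 mice 3 and 4, the value at P20 was −0.002 (adjusted *P* = 0.998).

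*Abcb1a* (chr5:8660077-8748575) and *Abcb1b* (chr5:8798147-8866315) lie side by side on the plus strand and code for closely related P-glycoproteins, so that the split of reads between them is uncertain. *Abcb1a* had 0.125 to 6.01 CPM in control eyes at P20 (median 4.69), the lowest in mouse 6 with 3 counts, and 1.74 to 6.17 CPM in Nrf2 eyes (median 3.76). At P40 it had 3.07 to 6.02 CPM in control eyes (median 4.73) and 3.30 to 9.83 CPM in Nrf2 eyes (median 4.03). The log2 fold changes of *Abcb1a* were −0.15 (SE 0.769, edgeR adjusted *P* = 0.940) and 0.07 (SE 0.287, edgeR adjusted *P* = 0.971), and the first became 0.19 without mice 3 and 4 (adjusted *P* = 0.945).

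*Abcb1b* had 2.71 to 5.09 CPM in control eyes at P20 (median 3.87) and 1.95 to 9.54 CPM in Nrf2 eyes (median 3.56), the highest in mouse 2. At P40 it had 3.86 to 12.9 CPM in control eyes (median 6.06) and 3.41 to 39.0 CPM in Nrf2 eyes (median 5.45). The highest value was in the Nrf2 eye of mouse 3, whose control eye was also the second highest control with 11.5 CPM. The log2 fold changes of *Abcb1b* were −0.14 (SE 0.335, edgeR adjusted *P* = 0.867) and −0.03 (SE 0.328, edgeR adjusted *P* = 0.989), and the first became 0.032 without mice 3 and 4 (adjusted *P* = 0.977). Beside these genes, which are known from vessel walls, the 12 endothelial markers had median sums of 183.6 CPM in control and 128.2 CPM in Nrf2 eyes at P20, and of 197.8 and 229.2 CPM at P40.

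*Abcb6* (chr1:75171717-75180392, minus strand), a transporter that takes part in heme synthesis by moving porphyrins, had 6.70 to 17.9 CPM in control eyes at P20 (median 14.9) and 14.2 to 19.2 CPM in Nrf2 eyes (median 17.7). At P40, it had 5.40 to 14.7 CPM in control eyes (median 11.8) and 9.52 to 27.0 CPM in Nrf2 eyes (median 16.8). The groups overlapped at both ages, and the Nrf2 eye was higher in 6 of 7 mice at P20 and in 8 of 9 at P40. The log2 fold changes were 0.33 (SE 0.193, edgeR adjusted *P* = 0.398) and 0.51 (SE 0.184, unadjusted *P* = 0.0167, edgeR adjusted *P* = 0.200), and the first was 0.45 without mice 3 and 4 (adjusted *P* = 0.339). Neither passed the threshold, nor did either with any other tool, setting, or mouse left out, where the lowest adjusted *P* value was 0.0853 (DESeq2 at P40).

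**Figure D4:**
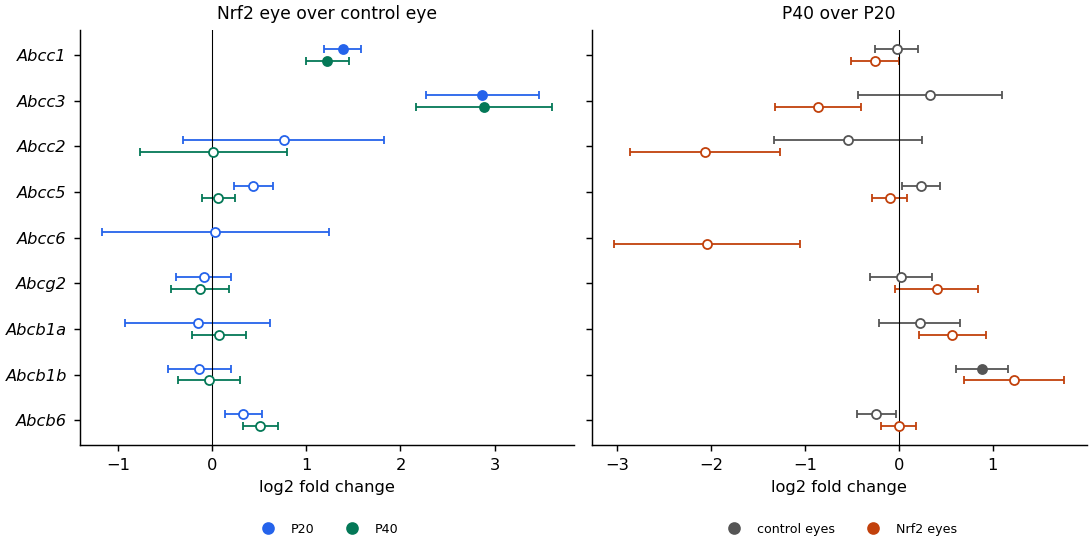
Fitted log2 fold changes with standard errors of the 9 transporters, for Nrf2 eyes over control eyes at P20 and P40 (left) and for P40 over P20 in control and in Nrf2 eyes (right). Filled points passed the threshold, open points did not, and *Abcc6* has no value where it was removed by the filter. *Abcc1* and *Abcc3* lie to the right of 0 at both ages on the left, and on the right *Abcb1b* in control eyes is the filled point.

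Whether the Nrf2 effect differed between the ages was tested as an interaction over all 32 libraries. None of the 9 members passed the threshold (edgeR, 0 at an unadjusted *P* value under 0.05 as well), against 0.00557% of 17959 genes called and 429 with an unadjusted *P* value under 0.05. DESeq2 and limma voom also called 0. The difference of the log2 fold changes, P40 minus P20, was −0.16 for *Abcc1* (SE 0.328) and 0.02 for *Abcc3* (SE 0.694), and over the members it lay between −0.73 (*Abcc2*, SE 1.34) and 1.69 (*Abcc6*, SE 1.42), each with an edgeR adjusted *P* value of 0.9995. At these errors, the absence of a call does not show that the effects were equal at both ages.

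The last comparison was that of P40 with P20 in eyes with the same vector. The library titles begin with M at P20 and with A at P40, so age and this series of libraries cannot be told apart. In control eyes, 1 of the 8 members tested, *Abcb1b*, was higher at P40 and 0 were lower, against 14.8% of 16832 genes called in either direction, 8.34% higher and 6.42% lower. The share of members is near that background. As given above, *Abcb1b* had a median of 3.87 CPM at P20 and 6.06 CPM at P40 in control eyes, where 6 of the 9 eyes at P40 lay above every eye at P20. The fitted change on the log2 scale was 0.89 (SE 0.275, edgeR adjusted *P* = 0.0414). With 1 eye left out at a time, it was called in 4 of 16 fits, all of them without an eye at P40 (mouse 1, 4, 6, or 7), and the highest adjusted *P* value among the 16 was 0.0873. Without P20 mice 3 and 4 it was 0.83 (adjusted *P* = 0.124), and without the filter on low counts it was 0.80 (adjusted *P* = 0.0861). The share of all genes called moved too, to 0.916% without these mice and 3.32% without the filter. With 1 eye left out, that share was 2.77% to 25.6%. The part of *Abcb1a* reads in the change of *Abcb1b* was not tested, and *Abcb1a* itself had a log2 fold change of 0.22 (SE 0.431, edgeR adjusted *P* = 0.739).

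The other 7 members tested stayed under the threshold with age in control eyes, with log2 fold changes from −0.54 (*Abcc2*, SE 0.785) to 0.33 (*Abcc3*, SE 0.765). That of *Abcc1* was −0.02 (SE 0.228, edgeR adjusted *P* = 0.953). The value of *Abcc3* rested on the control eye of P40 mouse 8, without which it was −1.03 (edgeR adjusted *P* = 0.148). *Abcc6*, with a mean of 0.607 CPM at P20 and 0.163 CPM at P40, was removed by the filter over all control eyes, but it was tested and called when the control eye of P20 mouse 6 was left out. The median over the 8 members was 0.12, against 0 over all genes tested. Beside these values, 2 of 10 RPE markers were higher with age in control eyes, and 4 of 6 fibroblast and 2 of 7 mural markers were lower, and their part in the members' values was not tested.

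In Nrf2 eyes, 0 of the 9 members passed the threshold between the ages, against 0.502% of 16745 genes, 0.167% higher and 0.334% lower. At an unadjusted *P* value under 0.05 there were 2 members, *Abcc2* with a log2 fold change of −2.06 (SE 0.798, unadjusted *P* = 0.0191, edgeR adjusted *P* = 0.131) and *Abcb1b* with 1.23 (SE 0.531, unadjusted *P* = 0.0334, edgeR adjusted *P* = 0.162). DESeq2 called 0 members, against 10.9% of all genes, and limma voom called 1, *Abcb1b* (0.83, adjusted *P* = 0.0424), against 13.2% of all genes. *Abcc1* and *Abcc3* had log2 fold changes of −0.26 (SE 0.259) and −0.86 (SE 0.456). The control and Nrf2 comparisons of the ages are over the same mice, and the Nrf2 comparisons share these libraries with them.

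The promoter windows of the members were searched for the core of the antioxidant response element, TGACNNNGC on either strand, in 250 bases before and 50 after the RefSeq start site (GRCm38.p6). Windows were found for 6 of the 9 members. *Abcc1*, *Abcc3*, and *Abcc6* had no window, so their promoters could not be searched. The core was present for 2 of the 6, *Abcc2* and *Abcb1a*, against 13.99% of the 27025 genes with windows of this length. Both are printed because they are the windows of members that hold the core, in capitals, and the members themselves did not pass the test with Nrf2 at either age. The window of *Abcc2* is chr19:43782058-43782357 on the plus strand, where the core begins 98 bases before the start site, and that of *Abcb1a* is chr5:8566841-8567140 on the plus strand, where it lies on the other strand after the start site. The RefSeq start of that *Abcb1a* window lies upstream of, and outside, the interval given above for the gene.
Abcc2: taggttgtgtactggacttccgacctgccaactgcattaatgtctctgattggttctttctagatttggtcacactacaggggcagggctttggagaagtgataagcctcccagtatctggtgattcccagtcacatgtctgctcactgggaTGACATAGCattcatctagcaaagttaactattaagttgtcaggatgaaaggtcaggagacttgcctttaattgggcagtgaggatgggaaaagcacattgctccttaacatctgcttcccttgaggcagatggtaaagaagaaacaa
Abcb1a: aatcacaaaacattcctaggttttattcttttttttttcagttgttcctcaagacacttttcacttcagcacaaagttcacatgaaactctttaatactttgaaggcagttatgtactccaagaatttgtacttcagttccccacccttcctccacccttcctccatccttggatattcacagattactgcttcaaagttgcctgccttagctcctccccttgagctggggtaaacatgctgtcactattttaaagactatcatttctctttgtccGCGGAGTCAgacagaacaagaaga
*Abcc4*, which is outside the set, also held the core in each of its windows. A match of letters is no evidence of binding in the RPE, and the windows of *Abcc5*, *Abcg2*, *Abcb1b*, and *Abcb6* only lack these letters in the bases searched.

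*Abcc4*, the ABCC member left out of the set, was higher with Nrf2 at both ages, from 88.5 ± 38.5 to 601.8 ± 282.8 CPM at P20 (SD, n = 7; log2 fold change 2.64, SE 0.320, edgeR adjusted *P* = 0.00921) and from 47.9 ± 17.2 to 433.6 ± 262.9 CPM at P40 (SD, n = 9; 2.89, SE 0.379, edgeR adjusted *P* = 0.000754). Over all genes tested, 2.93% were called higher with Nrf2 at P20 and 3.33% at P40. Among the 19 other B, C, and G members of the family, *Abcc4* included, 1 of 15 tested was higher at P20 and 2 of 15 at P40, with 0 lower. The second was *Cftr*, the chloride channel of the ABCC subfamily, from 1.13 to 3.29 CPM (log2 fold change 1.45, SE 0.259, edgeR adjusted *P* = 0.00623). Of the A, D, E, and F members, 1 of 19 tested was higher at each age, in both cases *Abca8b*, from 2.43 to 15.9 CPM at P20 (3.13, SE 0.660, edgeR adjusted *P* = 0.0410) and from 1.34 to 13.04 CPM at P40 (3.15, SE 0.384, edgeR adjusted *P* = 0.000470). Without P20 mice 3 and 4, the calls at P20 were again *Abcc4* (3.00, SE 0.321, edgeR adjusted *P* = 0.00585) and *Abca8b* (3.89, SE 0.624, edgeR adjusted *P* = 0.0232). In that fit, 4.58% of all genes tested were called in either direction. The median log2 fold changes of these lists over all mice were −0.02 at both ages for the first, and 0.15 and −0.02 for the second.

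Over the 32 libraries and 17959 genes, the genes whose log2 CPM followed *Abcc1* most closely were *Pcyt1b* (Pearson's r = 0.949), an enzyme of phosphatidylcholine synthesis, *Adam23* (0.939), a membrane protein of the ADAM family, and *Vit* (0.935), which codes for the extracellular matrix protein vitrin. For *Abcc3*, they were *Brinp3* (0.886), *Ano3* (0.881), of the anoctamin family, and *Slc1a4* (0.878), a neutral amino acid transporter. *Abcc1* and *Abcc3* had an r of 0.677 with each other, and their r with the transgene was 0.736 and 0.813. The libraries share the vector groups and the mice, so these values describe the set of libraries only.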

How the data were processed

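RNA purified from the eyecup supernatants of both eyes of 16 mice was measured. Per the labels and methods, the authors amplified the RNA, aligned reads with STAR, counted with featureCounts, and also estimated counts with Salmon (0.9.1 in the submitters' processing notes). The deposited table holds estimated counts per gene, which the authors had rounded and left without normalization, and which counter made them is not given in the sources used here. The labels name a pair of sequencing runs without assigning libraries, so no run term was fitted. The first letter of the titles, whose meaning is not given, follows the age in every library.

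The tests were run in R 4.3.3, with edgeR 4.0.16 (filterByExpr by group, TMM, quasi-likelihood test) over the whole table, with Benjamini-Hochberg adjustment over all genes tested. The mouse was a block for Nrf2 comparisons and the interaction, as paired eyes were taken to come from the same animal. Across genes, each eye's deviation from its group mean was correlated with that of its fellow eye. The mean r was 0.0213 (P20) and 0.0990 (P40), against −0.000519 and −0.00632 for eyes of other mice. The r of a mouse was over 0.1 in 3 of 7 mice at P20 and in 3 of 9 at P40. log2 CPM used a prior count of 2. Alternatives were DESeq2 1.42.0, limma 3.58.1 voom with quality weights, RLE, no filter, the block, leaving out each mouse or eye, and leaving out P20 mice 3 and 4. The list of rod markers with age is not reported here. Calls of the other lists without P20 mice 3 and 4 were added after the data were seen. The members, lists, and rules were chosen with earlier results of these data known. All 9 members are named, and from the lists the genes called with Nrf2, at most 3 per direction and comparison. Lengths and coordinates come from an annotation of GRCm38, promoters from RefSeq.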

Additional observations from a re-analysis of the deposited data

Results flagged for a closer look

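In each of the 36 sets of 1 member in 1 group, the highest and lowest eye were compared with the others on the log2 scale (gap to the nearest eye divided by the range, Dixon's 95% critical value). Chance flags about 1 in 20 such sets, and 5 were found. For *Abcb6*, the control eye of P20 mouse 6 was low (6.70 CPM against 13.2 to 17.9 in the others, ratio 0.69), as was the control eye of P40 mouse 8 (5.40 against 10.1 to 14.7 CPM, ratio 0.628). For *Abcb1a*, the control eye of P20 mouse 6 was low (0.125 against 2.59 to 6.01 CPM, ratio 0.763). For *Abcb1b*, the Nrf2 eye of P40 mouse 3 was high (39.0 against 3.41 to 8.25 CPM, ratio 0.639). For *Abcg2*, the Nrf2 eye of P20 mouse 2 was high (15.3 against 4.79 to 7.14 CPM, ratio 0.657), as was its control eye, at 15.7 CPM the highest control.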

How the results depend on the processing

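The number of members called with Nrf2 at P20 was 2 under every alternative other than leaving out 1 mouse, where it was 1 to 3. The share of all genes called moved more, from 3.41% to 12% with DESeq2, 16% with limma voom, and 6.7% with no replicate block. This share was 1.19% with no filter, 4.58% without P20 mice 3 and 4, and 0.68% to 12.2% with 1 mouse left out, the highest without mouse 4. At P40 the number of members called was 2 under every alternative other than no replicate block, where it was 1, and leaving out 1 mouse, where it was 1 to 2, with 2.59% to 8.27% of all genes called over these alternatives. With age in control eyes it was 1, but 0 with no filter, with a replicate block by mouse number (the ages are different mice), and without P20 mice 3 and 4, and 0 to 1 when 1 eye was left out, where without the control eye of P20 mouse 6 the called member was *Abcc6*. The share of all genes called moved as well, from 14.8% to 3.32% with no filter and 1.15% with that block. It was 0.916% without P20 mice 3 and 4, and 2.77% to 25.6% with 1 eye left out. With age in Nrf2 eyes the number of members called was 0, and 1 with limma voom, where the share of all genes was 13.2% against 0.502%. For the interaction of Nrf2 with age it was 0 throughout. The causes were not tested. *Abcc2* and *Abcc6* had libraries at the floor.

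Log2 fold changes of members that had not passed the threshold changed sign 90 times over the alternatives, with 0 past the threshold afterwards, and 0 sign changes were found for a called member. With Nrf2 at P20, they became −0.109 for *Abcc2* and −0.77 for *Abcc6* with limma voom, 0.026 for *Abcb1b* with no replicate block, and 0.19 for *Abcb1a* and 0.032 for *Abcb1b* with P20 mice 3 and 4 left out. Leaving out 1 mouse at a time, the range was −0.694 to 0.701 for *Abcc6*, −0.254 to 0.085 for *Abcg2*, and −0.638 to 0.125 for *Abcb1a*. With Nrf2 at P40, they became 0.311 for *Abcb1b* with limma voom and −0.235 for *Abcc2*, 0.186 for *Abcg2*, 0.348 for *Abcb1b* with no replicate block. Leaving out 1 mouse at a time, the range was −0.33 to 0.314 for *Abcc2*, −0.053 to 0.144 for *Abcc5*, −0.106 to 0.16 for *Abcb1a*, and −0.203 to 0.156 for *Abcb1b*. With age in control eyes, they became 0.005 for *Abcc1* and −0.956 for *Abcc3* with DESeq2, −0.913 for *Abcc3* with limma voom, 0.005 for *Abcc1* with RLE, −0.065 for *Abcg2* with no filter, −1.341 for *Abcc3* with a replicate block by mouse number, and 0.036 for *Abcc1* with P20 mice 3 and 4 left out. Leaving out 1 eye at a time, the range was −0.206 to 0.041 for *Abcc1*, −1.027 to 0.67 for *Abcc3*, and −0.138 to 0.269 for *Abcg2*. With age in Nrf2 eyes, they became 0.241 for *Abcc6* with DESeq2, 0.918 for *Abcc6* with limma voom, and 0.009 for *Abcc5* and 0.09 for *Abcb6* with a replicate block by mouse number. Leaving out 1 eye at a time, the range was −2.494 to 0.242 for *Abcc6*, −0.093 to 0.69 for *Abcg2*, and −0.123 to 0.07 for *Abcb6*. For the interaction of Nrf2 with age, they became 0.31 for *Abcc2* and 0.19 for *Abcg2* with limma voom, −0.006 for *Abcc3* with RLE, −1.165 for *Abcc3*, −0.271 for *Abcc6*, 0.375 for *Abcg2* with no replicate block, and −0.782 for *Abcc3*, −0.153 for *Abcb1a*, −0.1 for *Abcb1b* with P20 mice 3 and 4 left out. Leaving out 1 mouse at a time, the range was −0.325 to 0.4 for *Abcc3*, −0.306 to 0.152 for *Abcg2*, −0.044 to 0.735 for *Abcb1a*, and −0.104 to 0.4 for *Abcb1b*.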

Other observations

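Carriers of drugs and organic ions of the solute carrier families, which bring substrates of the exporters into cells, were counted beside the members. With Nrf2, 1 of 20 tested was higher at P20, and 2 of 19 were higher and 3 lower at P40. Over all genes tested, 2.93% were called higher at P20, and 3.33% higher and 1.23% lower at P40. *Slc22a23*, an orphan member of the organic ion carriers, was higher at both ages, from 23.6 to 61.0 CPM at P20 (on the log2 scale 1.25, SE 0.197, edgeR adjusted *P* = 0.0154, and 1.41 without mice 3 and 4, adjusted *P* = 0.0207) and from 6.83 to 33.2 CPM at P40 (1.91, SE 0.452, edgeR adjusted *P* = 0.0315). *Slco2b1*, an organic anion carrier, was higher at P40 (1.27, SE 0.321, edgeR adjusted *P* = 0.0438). Lower at P40 were *Slco1c1*, a carrier of thyroxine, from 81.5 to 24.9 CPM (−1.61, SE 0.254, edgeR adjusted *P* = 0.00269), *Slco1a5* (−1.18, SE 0.251, edgeR adjusted *P* = 0.0174), and *Slco1a4* (−0.82, SE 0.171, edgeR adjusted *P* = 0.0164), both organic anion carriers. Medians of the list were −0.19 at P20 and −0.14 at P40.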
